A study of Mus musculus with 4 samples.

Results

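The shores of transcription start CpG islands are the flanks, about 2000 bases long, on either side of the CpG islands in which protein-coding genes begin. A shore entry was taken when it lay on chromosomes 1 to 19, had a methylation level in all 4 libraries, and had an edge within 3 bases of an island that overlaps the 5′ end of a protein-coding transcript of GENCODE vM21 on GRCm38, the assembly of mm10. This rule, which uses position and not level, kept 9902 of the 17437 shores listed in any library. They flank 7310 islands and were named by 7257 genes, each shore by the gene whose start in the island lies nearest to it. A further 637 shores of such islands were missing in at least 1 library. Of the 9902 shores, 9839 could be set against a level of their own island in every library, 1674 hold another protein-coding start, 557 overlap another listed island and 398 overlap another of the 9902, so neighbouring values are not all independent.

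The cells were C3H10T1/2, mouse cells with the properties of mesenchymal stem cells that can be turned towards bone, cartilage, fat or muscle. They were transfected for 48 h with a control siRNA (NC) or an siRNA against DNMT1 (siDNMT1), and then either left uninduced or kept for 3 days in osteoblast (OB) medium with ascorbic acid, β-glycerophosphate and dexamethasone. The 4 conditions are thus NC uninduced, siDNMT1 uninduced, NC OB and siDNMT1 OB, all made in 1 line by transient transfection, with 1 library each. No difference between conditions therefore has a replicate check, and no p-value is given. A level is the fraction of methylated CpG cytosines in a region, from 0 to 1. The values carry no read counts, so the depth behind a level is unknown, and neither DNMT1 itself nor markers of the cell type are measured here. Of the start-island shores, 10290 were listed in NC uninduced, 10335 in siDNMT1 uninduced, 10279 in NC OB and 10094 in siDNMT1 OB, the library that lists fewest.

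CpG islands are stretches where CpG dinucleotides have been kept, and most islands at active gene starts are free of methylation. Outside them the mammalian genome has few CpGs and most of those are methylated, so the shore is where a gene start passes into its methylated surroundings. Shores are known for differences in methylation between tissues. DNMT1 copies methylation marks onto the new DNA strand after replication, and its loss in dividing cells dilutes the mark.

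The shore edges on both sides of the Gata3 and Npnt islands, genes that the study examined, show the letters at this border. Each is the 250 bases next to the island, on the plus strand of GRCm38, read 5′ to 3′ from RefSeq. Capitals mark CCGG, the letters that the enzyme MspI of standard reduced representation libraries recognises. Both genes lie on the minus strand, so the upstream shore has the higher coordinates.
Gata3 upstream shore, chr2:9878868-9879117: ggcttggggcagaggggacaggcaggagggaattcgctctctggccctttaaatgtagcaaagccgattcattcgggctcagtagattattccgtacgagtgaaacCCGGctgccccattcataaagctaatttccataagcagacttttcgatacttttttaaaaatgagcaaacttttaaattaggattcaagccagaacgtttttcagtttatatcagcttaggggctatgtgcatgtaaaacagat
Gata3 downstream shore, chr2:9878317-9878566: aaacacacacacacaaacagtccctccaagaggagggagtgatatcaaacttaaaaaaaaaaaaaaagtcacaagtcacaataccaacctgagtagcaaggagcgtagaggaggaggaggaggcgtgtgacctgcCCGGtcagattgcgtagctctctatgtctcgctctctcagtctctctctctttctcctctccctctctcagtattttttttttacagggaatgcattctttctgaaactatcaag
Npnt upstream shore, chr3:132950434-132950683: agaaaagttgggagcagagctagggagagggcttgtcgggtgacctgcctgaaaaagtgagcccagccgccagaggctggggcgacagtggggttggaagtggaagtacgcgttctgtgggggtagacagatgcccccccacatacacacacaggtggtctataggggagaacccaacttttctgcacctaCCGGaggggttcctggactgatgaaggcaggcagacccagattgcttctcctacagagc
Npnt downstream shore, chr3:132949211-132949460: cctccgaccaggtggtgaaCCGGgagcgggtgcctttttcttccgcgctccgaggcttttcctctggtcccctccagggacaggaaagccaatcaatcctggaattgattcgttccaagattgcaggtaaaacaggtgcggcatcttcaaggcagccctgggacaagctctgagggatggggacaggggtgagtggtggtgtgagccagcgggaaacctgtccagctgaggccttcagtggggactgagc
These stretches hold 8 CpGs in the Gata3 upstream window, 5 in the Gata3 downstream window, 6 in the Npnt upstream window and 9 in the Npnt downstream window, and 1 CCGG each. Across all 9902 shores the median density was 1.6 CpGs per 100 bases and the median GC content 47.4%, against 10.5 and 69.4% in the 7310 islands. Gata3 encodes a zinc finger transcription factor. Its upstream shore had a level of 0.0261 in NC uninduced, 0.0226 in siDNMT1 uninduced, 0.0388 in NC OB and 0.0382 in siDNMT1 OB, while its downstream shore had 0.573, 0.555, 0.560 and 0.519 in the same order. The island between them, at a mean of 0.0648, was low like the upstream shore, so that the step in methylation at this gene stood on the transcribed side alone.

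Start-island shores were mostly low in methylation and spread over the whole range. The median level was 0.163 in NC uninduced (95% interval from order statistics 0.152 to 0.173, n = 9902), 0.161 in siDNMT1 uninduced (0.151 to 0.171), 0.144 in NC OB (0.134 to 0.155) and 0.134 in siDNMT1 OB (0.125 to 0.143). These intervals treat shores as independent and contain no variation between cultures. In NC uninduced 42.7% of the shores lay below 0.1 and 24.0% at 0.5 or above, and the middle 50% of shores ran from 0.0406 to 0.486. In siDNMT1 OB 45.9% lay below 0.1 and 21.7% at 0.5 or above. The islands themselves had medians of 0.0230, 0.0240, 0.0212 and 0.0211 in the same order of libraries. The 4825 shores of other islands on the same chromosomes had medians of 0.442, 0.441, 0.428 and 0.412, about 0.28 above those of the start-island shores.

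**Figure D1:**
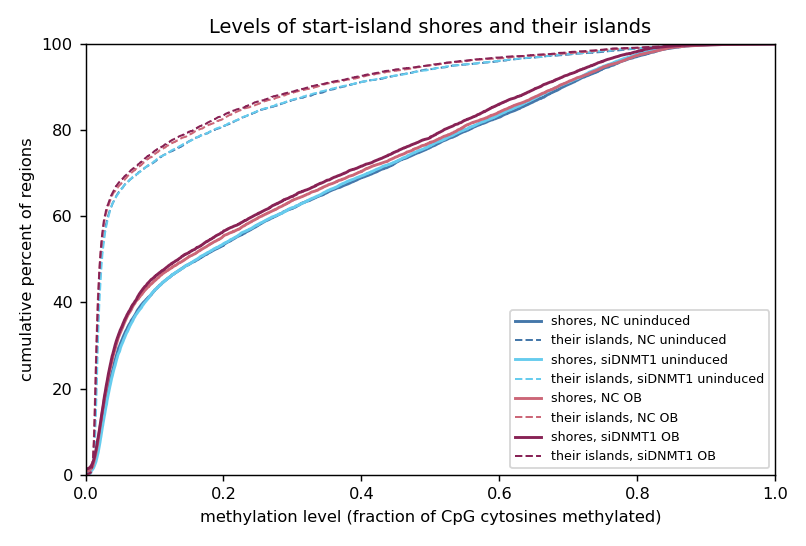
Cumulative percent of regions (vertical axis) by methylation level (horizontal axis, fraction of CpG cytosines methylated) for the 9902 start-island shores (solid lines) and, once per shore, their islands (dashed lines) in each of the 4 libraries. The island curves rise steeply near 0, with medians of 0.0211 to 0.0240, whereas the shore curves climb over the whole range, with medians of 0.134 to 0.163 and the 2 OB libraries to the left of the uninduced ones.

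A shore was usually above its own island. The level of the shore exceeded that of the island in 81.6% of 9839 shores in NC uninduced, 81.6% in siDNMT1 uninduced, 81.8% in NC OB and 80.4% in siDNMT1 OB. The median of shore minus island was 0.0521 (0.0479 to 0.0558), 0.0525 (0.0492 to 0.0562), 0.0471 (0.0439 to 0.05) and 0.0447 (0.0421 to 0.0480). In all 4 libraries alike the shore was above the island at 7139 shores (72.6%), and below or equal to it at 1150 (11.7%). The remaining 1550 shores had different signs in different libraries. Shores of other islands did not stand above their islands in this way: 51% were higher in NC uninduced, and the median of shore minus island was 0.00256 (−0.00102 to 0.00534, n = 4686).

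The step up from the island was large at a minority of shores. In NC uninduced 2398 shores (24.4%) lay at least 0.3 above their island and 151 at least 0.3 below it. Of the 7245 shores whose island had a mean level under 0.1 over the 4 libraries, 4166 (57.5%) were themselves under 0.1 and 1247 (17.2%) were at 0.5 or above. Of the 520 shores with an island at 0.5 or above, 327 (62.9%) were also at 0.5 or above and 15 were under 0.1. Unmethylated islands thus had shores of every level, and methylated islands mostly had methylated shores. The Spearman correlation between shore and island level was 0.452 across these 9839 shores, which share libraries and neighbouring sequence.

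**Figure D2:**
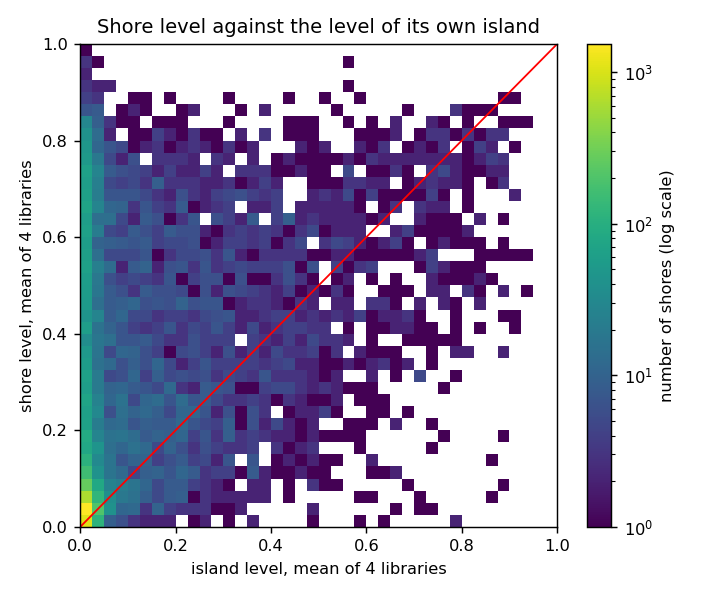
Number of start-island shores (colour, log scale) by the level of the island (horizontal axis) and of the shore (vertical axis), both as the mean of 4 libraries, with the line of equal levels in red. Most of the 9839 shores sit at the lower left, a column of shores at all heights stands over unmethylated islands, and few shores lie far below the line.

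The shores with the highest mean shore minus island level, among those with at least 20 CpGs, included those of Iars, Cog8, Rsph3a and Twist2. The downstream shore of Iars, an isoleucyl-tRNA synthetase gene, had 0.991 in NC uninduced, 1.00 in siDNMT1 uninduced, 0.980 in NC OB and 0.956 in siDNMT1 OB over an island at a mean of 0.00818. Twist2, a basic helix-loop-helix factor of mesenchymal cells, had at its downstream shore 0.993, 0.951, 0.988 and 0.95 over an island at 0.0470. At each of these the level given for the shore was near 1 and that of the island near 0. The nearest CCGG lies 473 bases from the island edge at Iars, 333 at Cog8, 1864 at Rsph3a and 336 at Twist2. Which bases of the flank these levels were read from is not given. The siDNMT1 OB level was the lowest of the 4 libraries at Iars, Cog8, Rsph3a and Twist2.

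The 5 shores farthest below their islands belonged to Pdgfa, Sphk2, Crlf2, Nr1h2 and Lhx6, and here it was the island that was methylated. Pdgfa, a platelet-derived growth factor chain, had downstream 0.1, 0.0986, 0.0898 and 0.0852 beside an island at a mean of 0.890. Nr1h2, a liver X receptor gene, had at its upstream shore 0.0172, 0.0168, 0.0144 and 0.0154 beside an island at 0.780. Lhx6, a LIM homeobox gene, had upstream 0.118, 0.138, 0.146 and 0.0983 beside an island at 0.857. These 5 shores are CpG-rich for a shore, with 55 to 159 CpGs each against a median of 32.

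Whether a flank has a level at all went with the letters CCGG. Of 19978 flanks of start islands, counted whether listed or not, 0.338% of those without CCGG had a level in all 4 libraries, 20.1% of those with 1 site, 43.2% with 2, 65.7% with 3, 77.2% with 4, 88.2% with 5 and 96.3% with 6 or more. CCGG reads the same on both strands and occurs in 88.2% of these flanks and in 99.9% of the listed shores. The spacing of the sites separated the flanks further. Where neighbouring sites 40 to 220 bases apart reached into the flank by at least 20 bases, 86.2% of 10524 flanks were listed, and where none did, 8.80% of 9454. Such a pair was present at 91.6% of the listed flanks and at 12.1% of those listed in no library. The sample labels describe fragmentation by sonication, which does not depend on these letters, while the series is named as reduced representation sequencing; the step that produced the pattern was not tested. A shore level therefore need not describe the whole flank, and the bases it was read from are not given.

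The level of a shore went with the place of its nearest CCGG. Where the nearest site lay under 100 bases from the island edge, the median of the mean level over 4 libraries was 0.0828 (0.0772 to 0.0893, n = 4087), and from 100 to under 250 bases it was 0.1 (0.0897 to 0.113, n = 3559). From 250 to under 500 bases it was 0.390 (0.357 to 0.421, n = 1152), from 500 to under 1000 bases 0.536 (0.521 to 0.573, n = 742) and at 1000 bases or more 0.611 (0.582 to 0.634, n = 354). The islands changed little over the same classes, with medians of 0.0211, 0.0219, 0.0249, 0.0257 and 0.0233. Shore medians ran from 0.0926 to 0.618 in NC uninduced and from 0.0772 to 0.587 in siDNMT1 OB, and rose from class to class in each library. Shores of other islands rose less along the same classes, from 0.385 to 0.543, so that beyond 500 bases the start-island shores were no longer the lower of the 2 kinds. The Spearman correlation of distance with level was 0.259 across 9894 shores.

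**Figure D3:**
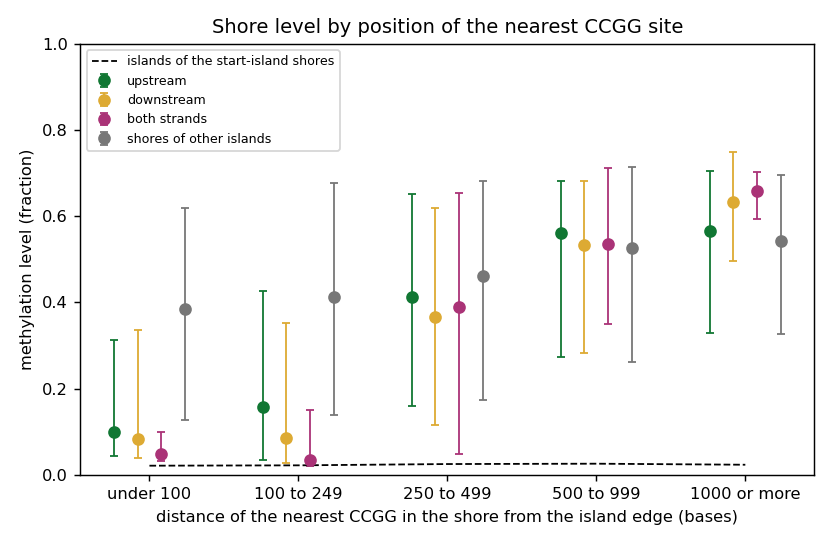
Methylation level (vertical axis, fraction, mean of 4 libraries) by distance in bases of the nearest CCGG from the island edge (horizontal axis), for upstream, downstream and both-strand start-island shores and for shores of other islands; points are medians, bars run from the 25th to the 75th percentile, and the dashed line is the median of the islands. All 3 kinds of start-island shore climb from medians under 0.16 below 250 bases to medians above 0.56 at 1000 bases or more, while the island line stays near 0.02.

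The contrast was plain at shores with a single CCGG. In 849 such shores, 803 had the site within 250 bases of the edge, with a median level of 0.0473, and 46 had it farther out, with a median of 0.569. Flanks with a single near site were also listed far more often: 65.2% of those with the site under 100 bases away and 59.5% from 100 to under 250 bases, against 1.16% from 250 to under 500 bases. The windows of 100 bases around the only site are printed for 7 single-site shores named by their levels or differences, on the plus strand of GRCm38 from RefSeq, with the site in capitals.
Cog8, chr8:107055810-107055909: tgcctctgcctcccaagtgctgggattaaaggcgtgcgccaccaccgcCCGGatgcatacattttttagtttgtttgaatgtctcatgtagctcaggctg
Rsph3a, chr17:7943635-7943734: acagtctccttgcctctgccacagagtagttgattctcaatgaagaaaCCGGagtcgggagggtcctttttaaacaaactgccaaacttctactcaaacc
Twist2, chr1:91802970-91803069: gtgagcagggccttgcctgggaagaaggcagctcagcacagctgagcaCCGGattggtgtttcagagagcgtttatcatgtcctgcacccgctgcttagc
Ppp1r18, chr17:35863770-35863869: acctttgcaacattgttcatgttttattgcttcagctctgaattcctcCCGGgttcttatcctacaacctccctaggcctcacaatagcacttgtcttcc
Tmem168, chr6:13608125-13608224: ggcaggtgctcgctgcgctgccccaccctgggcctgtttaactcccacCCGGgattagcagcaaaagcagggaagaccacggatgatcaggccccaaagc
Adra2a, chr19:54047663-54047762: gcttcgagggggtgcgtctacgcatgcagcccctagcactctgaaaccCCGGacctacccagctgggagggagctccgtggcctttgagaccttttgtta
Grin3a, chr4:49845986-49846085: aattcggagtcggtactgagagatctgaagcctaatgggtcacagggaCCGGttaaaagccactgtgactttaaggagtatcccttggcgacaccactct
In Tmem168 and Adra2a the site lies 31 and 26 bases from the island edge, and the window begins outside the shore on the island side. In Rsph3a and Ppp1r18 it lies 1864 and 1906 bases from the edge. The shores with a distant site were high, at a mean level of 0.956 for Rsph3a, a radial spoke protein gene, and 0.571 for Ppp1r18, a gene for a phosphatase regulatory subunit. The near-site shore of Tmem168, a transmembrane protein gene, was at 0.111, but that of Adra2a, the α2A adrenoceptor gene, was at 0.691 beside an island at 0.687.

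Upstream and downstream shores differed little once compared at the same island. The 4188 upstream shores had a median mean level of 0.186 (0.175 to 0.2) and the 4932 downstream shores 0.146 (0.130 to 0.16), and this order was turned among shores with at least 5 CCGG sites, where upstream minus downstream was −0.00872. The 782 shores of islands with starts on both strands had a median of 0.0504 (0.0450 to 0.0567). At 2393 islands with both sides listed, the median of upstream minus downstream was 0.00728 in NC uninduced (−0.000201 to 0.0124), 0.00733 in siDNMT1 uninduced (0.00252 to 0.0148), 0.00506 in NC OB (−0.000261 to 0.0114) and 0.00691 in siDNMT1 OB (0.000876 to 0.0123), and the upstream side was the higher at 51.8% to 52.8% of the islands. The sides of an island were nevertheless often unlike: 33.8% of the islands had sides that differed by at least 0.3 in NC uninduced, and the Pearson correlation between sides was 0.234. Gata3 is such an island. Changes on the 2 sides showed almost no correlation, with Pearson r from −0.00571 to 0.0203 over the 4 comparisons across the 2393 islands.

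Of the other features, GC content had a rank correlation with the level similar to that of the CCGG distance, and the rest had smaller ones. The Spearman correlation with level was 0.284 for GC content, 0.205 for the number of CCGG sites, 0.0947 for the number of CpGs, −0.0846 for the CpG observed-to-expected ratio and −0.117 for the share of repeat-masked bases, across 9902 shores. Island length (0.0176) and the distance from the shore edge to the gene start (0.0441) were close to unrelated to it. Shores at 0.5 or above had a median GC content of 49.2% and shores under 0.1 one of 45.5%. The gene's promoter entry, the 2 kb before the start, covers much of the upstream shore, and these levels had a Pearson correlation of 0.667 across 4080 genes. Downstream shores, which often lie in the transcribed part, correlated at 0.437 with the intron entry of the gene across 4632 genes, and upstream shores at 0.151 with it across 3817. Among genes whose upstream shore was at 0.5 or above, the median promoter level was 0.406 and the median 5′ UTR level 0.0489.

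Before induction, siDNMT1 and NC differed little at start-island shores. The median of siDNMT1 minus NC was −0.00156 (−0.00190 to −0.00121, n = 9902), and 54.2% of the shores were lower in siDNMT1. A shore is said to fall or rise when 2 single libraries differ by at least 0.1. By this measure 76 shores fell (0.768%) and 96 rose (0.970%), where 0.876% of all 16439 shores with 4 levels fell and 1.03% rose. After OB induction the median was −0.00611 (−0.00665 to −0.00563), 63.8% were lower in siDNMT1, 168 fell (1.70%) and 66 rose (0.667%), against 1.82% and 0.785% of all shores. The shares of start-island shores thus lay slightly below those of all shores in both directions.

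Shores were lower in OB than in uninduced cells in both siRNA arms. The OB cells had 3 days of induction after transfection, and no matching time is given for the uninduced cells. Effects of the medium, of time in culture and of time after the siRNA therefore cannot be told apart. In NC the median of OB minus uninduced was −0.00678 (−0.00722 to −0.00637), with 187 shores that fell (1.89%) and 75 that rose (0.757%), against 2.01% and 0.858% of all shores. In siDNMT1 it was −0.0126 (−0.0131 to −0.0120), with 350 that fell (3.53%) and 76 that rose (0.768%), against 3.58% and 0.894% of all shores. The 4 comparisons share libraries in part, and both that involve siDNMT1 OB use the library with the fewest listed shores, whose part in the differences was not tested. The falls made up 71.8% of the changed shores for siDNMT1 minus NC in OB, 71.4% for induction in NC and 82.2% for induction in siDNMT1. When the median of each library's start-island shores was first subtracted, these shares were 61.2%, 48.8% and 57.9%. Centring shifts every shore of a library by the same amount, including the unmethylated ones, and the library medians differ by more than the median of the shore differences.

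The siDNMT1 difference in OB minus that in uninduced cells had a median of −0.00548 (−0.00603 to −0.00496) and was below 0 at 60.1% of the shores. Own islands, counted once per shore, moved less: siDNMT1 minus NC had a median of 0.000643 before induction and −0.000613 in OB, and 12 and 16 of 9839 fell. In NC uninduced 72.6% of these islands lay below 0.1, which leaves them little room to fall. Shores and islands were not matched in level. The differences of a shore and of its island were weakly related at most. Across 9839 shores, in the same libraries, the Spearman correlation between them was 0.0152 for siDNMT1 minus NC before induction, 0.0521 in OB, 0.121 for induction in NC and 0.158 for induction in siDNMT1. Of the 186 and 348 of these shores that fell with induction, 4 in NC and 9 in siDNMT1 had an island that fell as well, where 0.661% and 0.722% of the islands fell. The shores of other islands had median differences of −0.00350 and −0.0110 in the siDNMT1 comparisons, larger than those of start-island shores, and were higher in level throughout.

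The size of the difference followed the level of the shore, and it did so differently from comparison to comparison. For siDNMT1 minus NC in OB the median ran from −0.000179 in shores under 0.05 (n = 3060) through −0.00825 at 0.1 to 0.2 (n = 1034) and −0.02 at 0.4 to 0.6 (n = 1411) to −0.0245 at 0.6 and over (−0.0262 to −0.0230, n = 1558). Before induction it ran from 0.000951 to −0.00894 over the same classes. For induction in NC the median was −0.00266 under 0.05, −0.02 at 0.2 to 0.4 and −0.00534 at 0.6 and over (−0.00655 to −0.00430), so the differences were greatest at intermediate shores. For induction in siDNMT1 it was −0.00404 under 0.05, −0.0285 at 0.2 to 0.4 and −0.0210 at 0.6 and over (−0.0225 to −0.0194), and so stayed low in the highest class. These comparisons share libraries in pairs, and their values are given side by side for that reason. In the highest class, shores of other islands had −0.0209 (−0.0222 to −0.02, n = 1575) for siDNMT1 minus NC in OB, against −0.0245 for start-island shores, a difference without a replicate check.

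**Figure D4:**
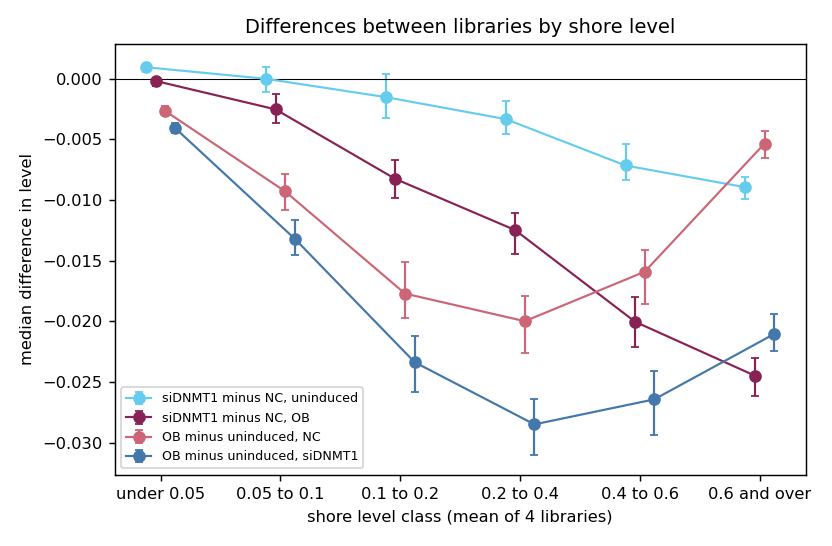
Median difference in methylation level (vertical axis) of the 9902 start-island shores in 6 classes of mean level (horizontal axis) for the 4 comparisons, with bars for the 95% order-statistic interval of the median. Both siDNMT1 lines go down with level, to −0.00894 before and −0.0245 after induction, whereas the line for induction in NC is lowest at 0.2 to 0.4 and returns to −0.00534 in the highest class, where induction in siDNMT1 has −0.0210.

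Among the 2268 shores with a mean level of 0.5 or more, the most methylated ones, 82.2% were lower in siDNMT1 than in NC in OB, with a median of −0.0232 (−0.0247 to −0.0220), and 66.8% before induction, with a median of −0.00835. Their islands, at a median level of 0.0589, had median differences of −0.00176 and 0.000347. By at least 0.1, 63 of these shores fell in OB and 19 rose, which is 2.78% and 0.838% of them, against 1.70% and 0.667% of all start-island shores. Of all start-island shores, 4387 had a mean level under 0.1, which leaves little room to fall by 0.1. The shares are not matched for this. In OB 27 of 1034 shores at 0.1 to 0.2 fell, and 42 of 1512 at 0.2 to 0.4. At 0.4 to 0.6 it was 51 of 1411, and at 0.6 and over 37 of 1558. By chromosome the median difference in OB was below 0 on all 19, from −0.00819 on chromosome 13 to −0.00396 on chromosome 3. Before induction it was below 0 on 18 of 19, from −0.00284 on chromosome 4 to 0.000108 on chromosome 12.

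Few shores had a like change before and after induction in the siDNMT1 comparisons, which share no library. Of 9902, 10 were lower by 0.1 or more in both, 11 higher in both, and 22 went opposite ways, where 0.109% of all shores fell in both and 0.134% rose in both. The Pearson correlation of the 2 differences was 0.0166 and Spearman's rho 0.126 across the 9902 shores. The 2 induction comparisons, which share no library either, had 82 shores that fell in both (0.828%), 12 that rose in both (0.121%) and 23 that went opposite ways, where 0.839% of all shores fell in both and 0.116% rose in both, with a Pearson correlation of 0.281 and Spearman's rho of 0.334. Shore by shore, the induction difference was thus the more alike between its 2 arms. The share of all shores that went opposite ways was not counted for either pair, so the 22 and 23 have no background to be read against.

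Of the shores that fell in both siDNMT1 comparisons, 6 hold at least 20 CpGs. The upstream shore of Arc, a neuronal activity gene, had 0.284 in NC uninduced, 0.132 in siDNMT1 uninduced, 0.260 in NC OB and 0.104 in siDNMT1 OB. Tmem168, whose only CCGG is printed above, had at its upstream shore 0.186, 0.0593, 0.159 and 0.0407. At these 2 shores both NC libraries were high and both siDNMT1 libraries low, with little difference by induction. At the upstream shore of Ppp1r18 the levels were 0.610, 0.467, 0.667 and 0.542, and the shore of Mcee, the methylmalonyl-CoA epimerase gene, had 0.250, 0.0667, 0.250 and 0. Epn3, an endocytic adaptor gene, had 0.662, 0.453, 0.4 and 0.280 at its downstream shore, which was also lower after induction in both arms.

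Rises in both comparisons were found at 10 shores with at least 20 CpGs. The downstream shore of Adra2a had 0.458, 0.742, 0.562 and 1.00, the upstream shore of E2f6, a transcriptional repressor gene, 0.205, 0.477, 0.270 and 0.5, and the upstream shore of Grin3a, an NMDA receptor subunit gene, 0.375, 0.499, 0.285 and 0.493. In these 3 both siDNMT1 libraries lay above both NC libraries. The shore of Gga3, a trafficking adaptor gene, had 0, 0.125, 0 and 0.128. Taf13, a subunit gene of the general factor TFIID, had 0.206, 0.729, 0.0232 and 0.146 at its upstream shore, with siDNMT1 OB below NC uninduced. The depth behind these levels, and behind those of the shores that fell in both, is unknown.

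**Figure D5:**
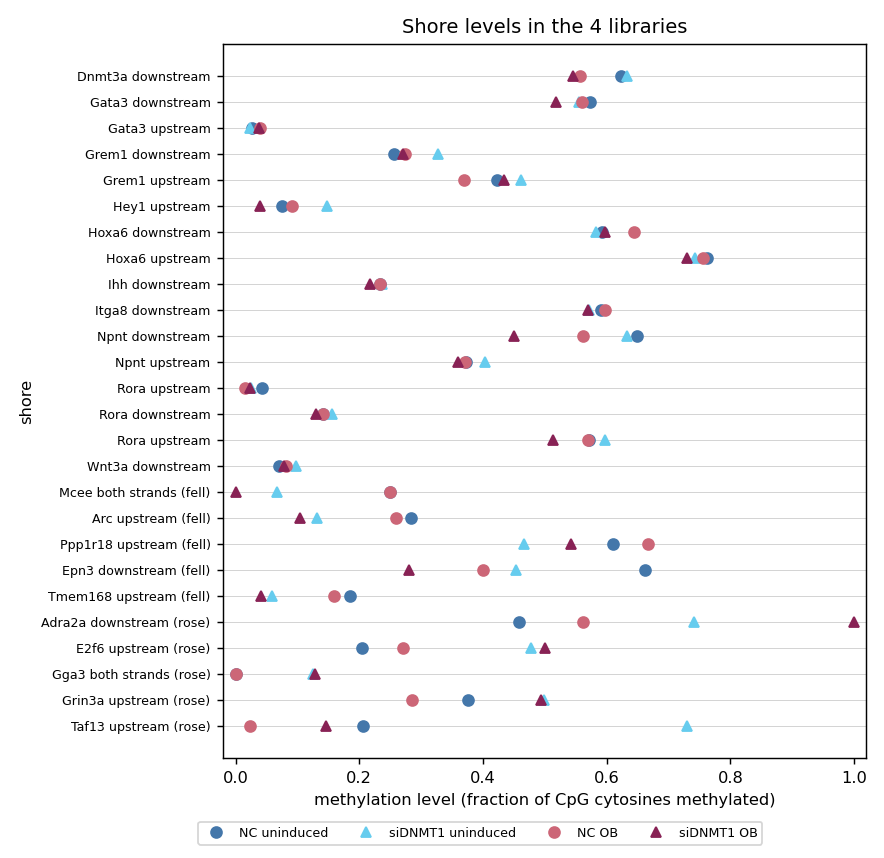
Methylation level (horizontal axis, fraction) of each start-island shore (vertical axis) of the study's genes and of the named shores that fell or rose in both siDNMT1 comparisons, with circles for NC and triangles for siDNMT1, and colours for uninduced and OB. In the rows marked fell both triangles lie to the left of the circle of the same induction state, as at Arc (0.284 and 0.260 against 0.132 and 0.104), and in the rows marked rose to the right; in most rows of the study's genes the 4 symbols lie close together.

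Beside Adra2a and Taf13, which were also among the 5 largest rises in OB and before induction respectively, several of the largest differences stood in a single comparison or turned in the other. The downstream shore of Dtymk, the thymidylate kinase gene, had 0.00714 in NC uninduced, 0.610 in siDNMT1 uninduced, 0.464 in NC OB and 0.0116 in siDNMT1 OB. It was thus among the 5 largest rises before induction and the 5 largest falls after it, and its island stayed near a mean of 0.0269. Haus6, an augmin subunit gene, had upstream 0.201, 0.800, 0.150 and 0.126, and the upstream shore of Grik3, a kainate receptor subunit gene, had 0.6, 0.209, 0.419 and 0.427. In Haus6 and Grik3 siDNMT1 uninduced stood apart from the other 3 libraries. In OB the largest fall was at the downstream shore of Cactin, with 0.730, 0.825, 0.579 and 0.0857, followed after Dtymk by the shore of Aamp, with 0.622, 0.529, 0.542 and 0.102. The largest rise there was at the upstream shore of Cmtm7, with 0.640, 0.649, 0.389 and 1.00. At Cactin, Aamp and Cmtm7 it was siDNMT1 OB that stood apart. The depth of these shores is unknown, and the part of sampling in such single values was not tested.

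For NC OB minus NC uninduced the largest falls included those at Grasp, Fcgr3, Vipr2 and Sept5 and the largest rises at Dtymk, Mrpl41, Unc5d, Plscr3 and Mlycd. Grasp had at its downstream shore 0.5 and 0.328 in the uninduced libraries (NC and siDNMT1) against 0 and 0 in the OB libraries. Unc5d, a netrin receptor gene, had downstream 0 and 0.16 against 0.280 and 0.308. At both of these shores the OB libraries lay on the same side of both uninduced ones. Mrpl41, a mitochondrial ribosomal protein gene, had downstream 0 and 0.0455 against 0.4 and 0, so that NC OB alone was high.

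Of 14 genes that the study names, 10 have 16 start-island shores with 4 levels. Hdac9, Sox9 and Sox6 have no listed island at a start, and Fgfr2 has 2 such islands without a listed shore. The 16 shores had a median mean level of 0.399, against 0.151 over all 9902, and 11 lay above their islands. None changed by 0.1 between siDNMT1 and NC before induction. In OB 14 were lower in siDNMT1 and 1 fell, where 63.8% of all start-island shores were lower and 1.70% fell, and their median difference was −0.0144 beside −0.00611 over all. That comparison is not matched in level. All start-island shores at 0.2 to 0.4 had a median difference of −0.0125 with 67.0% lower, and those at 0.4 to 0.6 had −0.02 with 73.1% lower. Many of these genes were picked by the study on these libraries, so the list gives no independent evidence of a direction.

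The shore that fell was the downstream one of Npnt, which encodes the matrix protein nephronectin. It had 0.649 in NC uninduced, 0.633 in siDNMT1 uninduced, 0.562 in NC OB and 0.45 in siDNMT1 OB, which is −0.112 for siDNMT1 minus NC in OB. Its upstream shore had 0.372, 0.403, 0.370 and 0.36, and the island between them had a mean of 0.0701. Both sides thus stood well above the island, and the low value was on the transcribed side. Itga8 encodes the integrin subunit that pairs with nephronectin, and its downstream shore had 0.590, 0.571, 0.597 and 0.569 over an island at 0.0191.

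Among the regulators, Dnmt3a encodes a de novo DNA methyltransferase, and its downstream shore had 0.624 and 0.632 uninduced against 0.557 and 0.545 in OB. The 2 OB libraries were the lower, with differences below 0.1. The upstream shore of the Notch target Hey1 had 0.0757, 0.148, 0.0906 and 0.0395, which made it 1 of the 2 shores of the study's genes that fell with induction in siDNMT1, with a difference of −0.109. The other was the downstream shore of Npnt, with −0.183. Hoxa6, a homeobox gene, had 0.592, 0.582, 0.645 and 0.597 downstream and 0.762, 0.743, 0.756 and 0.730 upstream, over an island at 0.384.

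The signalling genes were spread over the range. The shores of the BMP antagonist gene Grem1 had 0.257, 0.327, 0.275 and 0.271 downstream and 0.423, 0.461, 0.370 and 0.435 upstream, and the mean of each was below that of their island, 0.457. The downstream shore of Ihh, the Indian hedgehog ligand gene, had 0.233, 0.237, 0.233 and 0.217, and that of Wnt3a 0.0702, 0.0982, 0.0822 and 0.0780. The nuclear receptor gene Rora has starts in 2 islands. At the island with both sides listed its shores had means of 0.0269 upstream and 0.142 downstream, and the upstream shore of the other island had 0.572, 0.598, 0.571 and 0.514.

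Gene lists differed more in the level of their shores than in any difference between libraries. Cytosolic ribosomal protein genes, which every cell uses, had a median mean level of 0.0556 over 45 shores of 32 genes, and 39 of the 45 lay above their islands. Even so the upstream shore of Rps24 had a mean of 0.726, and the shores of Rpl22 had means of 0.725 upstream and 0.0120 downstream of an island at 0.0124. The list of DNA methylation enzymes and readers had a median of 0.1 over 21 shores. Its lowest shore was that of Gadd45g at 0.0164 and its highest that of Apex1 at 0.778. Neither gene encodes a methylation enzyme or reader: Apex1 is a DNA repair gene, and its island also holds a start of Osgep. BMP and TGF-β pathway genes had 0.124 over 27 shores, from Smad7 at 0.0171 to Smad3 at 0.793. These 3 lists lay below the median of 0.151 over all start-island shores.

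Lists of the bone, cartilage and fat lineages lay higher. Osteoblast transcription factors had a median of 0.278 over 26 shores, with the Twist2 shore described above at 0.970, Dlx6 at 0.902 and Runx2, the central osteoblast factor, at 0.0235. Bone matrix and mineralization genes had 0.527 over 7 shores, with Enpp1, which makes pyrophosphate, at 0.794, Alpl, the alkaline phosphatase, at 0.578 and Ank at 0.0144. Chondrocyte genes had 0.279 over 11 shores, with Comp, a cartilage matrix protein, at 0.699 and Trps1 at 0.0253. Adipocyte fate genes had 0.480 over 19 shores, with Ebf2 at 0.839 and the shores of Srebf1 between 0.0343 and 0.764. The list of muscle fate genes had 0.126 over 8 shores, with Mef2d at 0.0192. Its highest shore, at 0.788, was that of Myh9, a non-muscle myosin gene and so not a marker of muscle fate.

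In the lists of Hox, germline and imprinted genes the islands were methylated at the median, as were the shores, though not at every gene. Hox genes had a median shore level of 0.4 over 26 shores and a median island level of 0.425, and 14 of the 26 shores lay above their islands. The Hoxa7 shore was at 0.812 over an island at 0.0212, and the Hoxb6 shore at 0.134 beside an island at 0.304. Other developmental transcription factors had 0.402 over 90 shores beside islands at 0.236, from Foxc1 at 0.0138 to Foxf2 at 0.869, and Wnt pathway genes 0.421 over 39 shores beside islands at 0.194, from Fzd5 at 0.0504 to Wnt2 at 0.864. Germline genes, which somatic cells keep silent by methylation, had 0.590 over 14 shores beside islands at 0.833, and only 1 of 12 shores lay above its island. Tdrd6 at 0.756, Mael at 0.738 and Spo11 at 0.334 give their range. Imprinted genes had 0.562 over 16 shores beside islands at 0.523, from Ascl2 at 0.284 to Cdkn1c at 0.873.

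Few shores of any list changed by 0.1, as over all start-island shores, where 0.768% fell and 0.970% rose before induction and 1.70% and 0.667% did so in OB. A shore can stand in more than 1 list. In siDNMT1 minus NC before induction the 14 lists held 1 fall, among ribosomal protein genes, and 1 rise, among other developmental transcription factors. In OB they held 1 fall each among study, chondrocyte, Hox, DNA methylation and ribosomal protein genes, and 1 rise each among adipocyte and Wnt pathway genes. With induction in siDNMT1, where 3.53% of all start-island shores fell, 2 of 16 shores of the study's genes, 4 of 90 of other developmental transcription factors and 2 of 45 of ribosomal protein genes fell, and 1 or no shore in each of the other lists. With induction in NC, 1.89% of all start-island shores fell and 0.757% rose. There 2 of 90 shores of other developmental transcription factors, 2 of 39 of Wnt pathway genes and 1 of 27 of BMP and TGF-β pathway genes fell. A rise was seen at 1 of 11 shores of chondrocyte genes and 1 of 14 of germline genes. The median differences in OB were −0.0165 for Hox genes, −0.0159 for Wnt pathway genes and −0.0130 for adipocyte fate genes, beside −0.00611 over all start-island shores, and −0.00261 for ribosomal protein genes. Lists were not matched in level here. Hox, Wnt pathway and adipocyte fate shores had median levels of 0.4, 0.421 and 0.480. All start-island shores at 0.2 to 0.4 and at 0.4 to 0.6 had median differences of −0.0125 and −0.02. Bone matrix and mineralization genes (0.00505) and muscle fate genes (0.00240) had medians above 0, over 7 and 8 shores.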

How the data were processed

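For 4 libraries of C3H10T1/2 cells, 1 per condition, the authors trimmed reads with Trimmomatic 0.36 and aligned them to mm10 with Bismark 0.16.3. They deposited for each region the fraction of its CpG cytosines that was methylated, without read counts. The coverage minimum and the weighting of cytosines within a region are not given in the sources used here, so depth and the precision of a single level are unknown. Differentially methylated regions were not analysed here.

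Conditions were taken from the sample labels. Shores were matched to islands and to GENCODE vM21 starts on GRCm38, with positions counted from 1. An interval is the 95% order-statistic interval of a median. With 1 library per condition no test was run. The members, gene lists, thresholds and alternatives were chosen with earlier results of these data known. Named shores are all those of 14 genes that the study names. Among shores with at least 20 CpGs, they are also the 5 highest and 5 lowest in shore minus island, the 5 largest falls and rises in the siDNMT1 comparisons and in NC induction, and up to 5 per direction that changed alike in both siDNMT1 comparisons. The 2 highest and 1 lowest shores of each of the 13 other lists complete them, and some are given only as part of a count or are not reported here. Alternatives covered the threshold, centring, and subsets of shores. Functions were tested on simulated data. The tools were Python 3.11.15 with scipy 1.17.1, numpy 2.4.6, pandas 2.3.3 and matplotlib 3.10.9.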

Additional observations from a re-analysis of the deposited data

Results flagged for a closer look

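At 7 named shores the siDNMT1 difference was at least 0.1 in size both before and after induction, with opposite signs. Most named shores were picked for their levels or differences. Among all 9902 start-island shores 22 did so, and the share over all shores was not counted. The difference between the 2 was not tested, since each condition has 1 library. A rise before induction and a fall after it were seen at the downstream shore of Dtymk (siDNMT1 effect in OB less that in uninduced cells −1.06), the shore of Hlcs, the holocarboxylase synthetase gene (−0.800), that of Pigx (−0.752) and the downstream shore of Mlycd (−0.525). The Hlcs shore had levels of 0.2 in NC uninduced, 0.6 in siDNMT1 uninduced, 0.4 in NC OB and 0 in siDNMT1 OB, and the Pigx shore 0.0811, 0.583, 0.250 and 0. A fall before and a rise after were seen at the downstream shore of Rad21, a cohesin subunit gene (0.614), and the shores of Khnyn (0.448) and Fcgr3 (0.448). The Rad21 shore had 0.250, 0, 0 and 0.364, and the Khnyn shore 0.583, 0.321, 0.314 and 0.5. Some of these levels are simple fractions, such as 0.2, 0.6 and 0.4 at Hlcs. The depth behind them is unknown, and the part of sampling in these differences was not tested.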

How the results depend on the processing

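Of 98 values recomputed under alternatives, 61 kept their sign and stayed close to the main value, 32 moved and 5 reversed. Centring each library on its median shifts all its shores alike, and the difference of the library medians, being larger than the median difference, fixes the new sign. It gave median differences of opposite sign: siDNMT1 minus NC 0.000608 uninduced and 0.00365 in OB, and OB minus uninduced 0.0124 in NC and 0.0142 in siDNMT1. It brought the shores that fell to 1.05% in NC induction and to 1.97% in siDNMT1 induction, where 1.43% rose. A threshold of 0.05 gave falls and rises of 3.99% and 3.62% for siDNMT1 minus NC uninduced, 8.44% and 2.91% in OB, 9.66% and 2.82% for induction in NC, and 15.3% and 2.67% in siDNMT1. A threshold of 0.2 gave 0.162% and 0.232%, 0.273% and 0.131%, 0.222% and 0.131%, and 0.576% and 0.172% in the same order. Shores with at least 5 CCGG sites, a choice made after seeing the data, had a median level of 0.266 and shore minus island of 0.0974, a difference of −0.158 from shores of other islands, and had upstream minus downstream at −0.00872. Their median differences were −0.00196 and −0.00805 for siDNMT1 minus NC, −0.00851 and −0.0152 for induction and −0.00621 for the siDNMT1 effect in OB less that uninduced, and 0.484% and 0.333% rose in the siDNMT1 comparisons. At least 20 CpGs gave a median level of 0.162. Without shores holding a protein-coding start, shore minus island was 0.0517 and the gap to shores of other islands −0.330. No paired analysis was possible because each condition has 1 library, and for the same reason no library could be left out. The planned overlap with repeat entries was not run, since those entries carry no genome coordinates, and repeat-masked bases of the reference stood in.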
